A study of Mus musculus with 36 samples.

Results

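miR-139 is a microRNA whose hairpin lies in an intron of Pde2a, its host gene, and it was described here with that host across the cell populations of the mouse small-intestinal epithelium. The members were taken by name. Both entries without an offset whose name starts with miR-139 were read from the deposited miRNA table, which gave miR-139-3p (mmu-mir-139-3p in the table) and miR-139-5p, 2 of 638 entries without an offset. Pde2a, 1 of 27998 genes, was read from the single-cell counts. That makes 3 members in all. They were proposed because their pattern over these samples was already known, so their levels are given as a description and carry no test.

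The small RNA libraries came from cells sorted by flow cytometry from small intestine of C57BL6/2J mice, as the labels name the strain. They were made with the TriLink CleanTag ligation kit. The populations with values are Tuft (3 libraries), Sox9 High (4), Sox9 Low (4), goblet (4), CD24Low (4), Paneth (6), Lgr5 High (2) and Sox9 Negative (4), 31 libraries in all. Another 3 libraries, of a Progenitor population, are not analysed here. The labels name no reporter, gate, age or sex for these libraries and do not say that replicates are separate animals. Differences between replicates may therefore be technical. The 3 Sox9 fractions share the sample numbers 1 to 4. Fractions of 1 number also share a code of unstated meaning in the labels, and sample 3 carries another diet code (HFD) than the other samples (chow), with no stated meaning. The single-cell data are 2 10X Genomics Chromium libraries of wild-type mice aged 12 months, called library 1 and library 2 here.

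A miRNA hairpin is cut out of its primary transcript and then trimmed to a duplex of 2 short strands, one from each arm. Either strand can be loaded into an Argonaute protein, where its seed (bases 2 to 8) pairs with target mRNAs. Hairpins in introns are often made from the transcript of the host gene, though some have promoters of their own. miR-139-5p has been studied mainly as a miRNA with low levels in colorectal tumours. Pde2a encodes a phosphodiesterase that is switched on by cGMP and breaks down cAMP and cGMP, which links the 2 cyclic nucleotide pathways. In the intestine, guanylate cyclase C makes cGMP in response to the peptides guanylin and uroguanylin, and cGMP and cAMP drive chloride secretion through Cftr. Tuft cells are chemosensory cells that signal to immune cells, goblet cells secrete mucus, Paneth cells secrete antimicrobial peptides, and Lgr5 marks stem cells.

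The hairpin and its mature strands are shown because the data list reads from both arms. In the hairpin the capitals mark the arms, 5p first, and in the mature strands they mark the seed. The sequences are from RefSeq on build GRCm38.p6. The hairpin lies at chr7:101475376-101475443 on the + strand.
miR-139 hairpin: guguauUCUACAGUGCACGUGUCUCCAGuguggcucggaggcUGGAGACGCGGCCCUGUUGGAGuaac
miR-139-5p: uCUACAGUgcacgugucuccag
miR-139-3p: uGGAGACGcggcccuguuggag
Both strands are 22 bases long, with 14 bases between them, and miR-139-5p lies at 101475382 to 101475403 and miR-139-3p at 101475418 to 101475439 of chromosome 7. Folding the 68 bases with RNAfold gave 25 base pairs and a free energy of -35.6 kcal/mol, and 19 bases of the 5p strand paired with the 3p strand. The 3p strand has 68.2% G and C and the 5p strand 54.5%. Among the 1738 mature mouse miRNAs of the RefSeq table no other miRNA has the seed of either strand. miR-6397 shares the first 6 bases of the 3p seed. The strands have different seeds, so the 5p and 3p reads belong to miRNAs that pair with different sites.

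Pde2a (ENSMUSG00000030653) lies at chr7:101421691-101512829 on the + strand of the same build, so hairpin and host are read in the same direction. The hairpin is intronic in all 16 annotated Pde2a transcripts. It lies in intron 1, 2 or 3, depending on the transcript, since transcripts start at several places upstream. Introns that hold it are 15727 to 29902 bases long. All of them end at the same exon, 5927 bases after the hairpin. The hairpin is 37386 bases before the end of the gene, so the single-cell libraries, whose reads come from the 3′ ends of transcripts, count the spliced host and not the hairpin.

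The deposited signal for a miRNA is its read count divided by 1 factor per library. Values are whole multiples of the value of 1 read, so the reads behind each value were recovered. The table lists nothing under 10 reads, so an entry listed at 0 can hold up to 9 reads. Tuft and goblet libraries were shallow (475678 to 720400 and 689763 to 1636615 reads), and 9 reads in them are worth up to 62.0 and 57.1. CD24Low and Lgr5 High libraries were deep (13348905 to 30958439 and 16013732 to 24611108 reads), and 9 reads in them are worth at most 2.19. Libraries of the Sox9 fractions and of Paneth cells lie between, at 1744418 to 9229136 reads. Lane numbers are given for Paneth libraries 1 to 4, the Sox9 fractions and Lgr5 High cells, and the others carry none. Lane 1 held all Sox9 Low libraries and Sox9 High sample 3, and each other numbered lane held 1 population, where population and lane cannot be told apart.

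miR-139-3p was highest in tuft cells and was not listed in Sox9 Negative cells. Its signal in Tuft libraries 1, 3 and 4 was 1860, 4035 and 1536, a mean of 2477 ± 1359 (SD, n = 3). These values rest on 344, 586 and 361 reads. Library 3 stood above the other Tuft libraries, and the lowest Tuft library was still inside the range of Sox9 High cells. In sorted cells, fewer cells of a type and less RNA per cell cannot be told apart, here and below.

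Sox9 High cells had 620, 1112, 1957 and 852 for miR-139-3p in samples 1 to 4 (1135 ± 584, SD, n = 4). Sox9 Low cells had 438, 399, 968 and 306 (528 ± 299, SD, n = 4). The highest values of both fractions were those of sample 3, which carries the diet code HFD. The Sox9 Low value of that sample lay above 2 of the Sox9 High values, so the ranges overlapped. Goblet cells had 399, 180, 375 and 591 (386 ± 168, SD, n = 4), on 84, 43, 121 and 93 reads. CD24Low cells had 281, 279, 142 and 190 (223 ± 68.5, SD, n = 4). Goblet and CD24Low cells thus held the middle of the order, below the Sox9 Low mean, with overlapping ranges.

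The 6 Paneth libraries ran from 63.3 to 185 for miR-139-3p, with a median of 125, and the 2 Lgr5 High libraries had 80.8 and 157. These were the lowest populations in which the strand was listed, and they overlapped. All 4 Sox9 Negative libraries were listed at 0. At their depth, 9 reads are worth 9.01 to 21.0, so a level up to that would not be listed. In the order Tuft, Sox9 High, Sox9 Low, goblet, CD24Low, Paneth, Lgr5 High and Sox9 Negative, the single pair of neighbours whose ranges did not overlap was Lgr5 High and Sox9 Negative. Ranges that do not overlap are common in this table. Lgr5 High exceeded Sox9 Negative in that way in 32.6% of the 473 entries above a signal of 100 in at least 2 libraries, and nothing is read from the members' case.

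miR-139-5p, from the other arm of the same hairpin, was also highest in tuft cells but had another order below them. It had 438, 454 and 566 in the Tuft libraries (486 ± 69.5, SD, n = 3) and 359, 360, 420 and 346 in Sox9 High cells (371 ± 32.9, SD, n = 4). Those ranges did not overlap, as held for 12.9% of the 473 entries in the same direction. The 5p strand varied less between Sox9 High samples than the 3p strand, with coefficients of variation of 8.88% and 51.4%. Sample 3, which carries the diet code HFD, was the highest of these samples for both strands.

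CD24Low cells came next for miR-139-5p, with 210, 156, 80.0 and 259, all below Sox9 High cells (25.6% of entries were higher in Sox9 High without overlap). The 6 Paneth libraries ran from 26.3 to 243 with a median of 140. Sox9 Low cells had only 49.2, 69.4, 77.6 and 81.5, and Lgr5 High cells 19.4 and 86.3. Sox9 Low cells thus ranked 3 by mean for miR-139-3p and 5 for miR-139-5p.

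Goblet cells were listed at 0 for miR-139-5p in libraries 1 and 2 and had 71.3 and 76.2 in libraries 3 and 4, on 23 and 12 reads. The listing limit of the goblet libraries is close to those values, so a difference from Sox9 Low or Lgr5 High cells could not be seen at this depth. Sox9 Negative cells had 12.2, 34.7, 0 and 15.0, the lowest mean of the 8 populations, at 15.5 ± 14.4 (SD, n = 4). They were listed for the 5p strand in 3 of 4 libraries, on 11, 22 and 15 reads, and for the 3p strand in none.

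**Figure D1:**
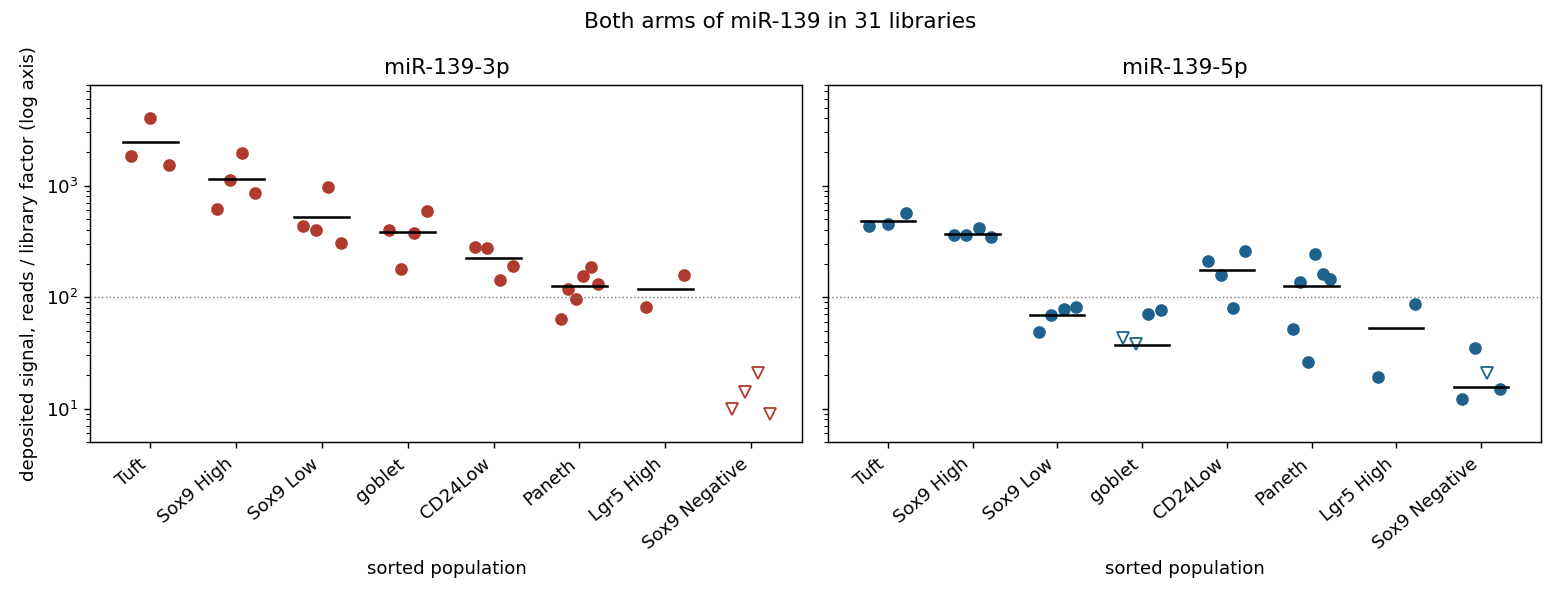
Deposited signal (log axis) of miR-139-3p on the left and miR-139-5p on the right in each library, by sorted population. Filled points are libraries, bars are population means with libraries at 0 counted as 0, open triangles stand at the value of 9 reads for libraries listed at 0, and the dotted line is the floor of 100 used in the tests of other miRNAs. The 3p means run from 2477 in Tuft libraries to 0 in Sox9 Negative libraries, and Sox9 Low and goblet libraries sit higher in the 3p panel than in the 5p panel.

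As reads per 1000000 reads of the table in a library (RPM), miR-139-3p ran from 501 to 1232 in Tuft libraries. Sox9 High libraries had 219 to 583 RPM, Sox9 Low libraries 104 to 265 RPM, goblet libraries 29.2 to 135 RPM and CD24Low libraries 44.4 to 79.2 RPM. It ran from 30.3 to 64.7 in Paneth and 22.5 to 40.2 in Lgr5 High libraries. On that scale Tuft and Sox9 High cells remained the top populations, and goblet cells spanned CD24Low and Paneth cells. By mean signal, miR-139-3p ranked 58 among the 638 entries without an offset in Tuft cells, 83 in Sox9 High and 111 in Sox9 Low cells.

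Since both strands come from 1 hairpin, their reads were set against each other within each library, where the library factor cancels. Ligation favours some ends over others, so the share is compared between populations and not read as a molar ratio. In Tuft libraries 1, 3 and 4 the 3p strand made up 80.9%, 89.9% and 73.1% of the reads of both. In Sox9 Low samples 1 to 4 it made up 89.9%, 85.2%, 92.6% and 79.0%. Goblet libraries 3 and 4 had 84.0% and 88.6%, and libraries 1 and 2, with no 5p listed, had at least 90.3% and 82.7% if 5p is taken at 9 reads.

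Sox9 High cells had a lower 3p share, 63.3%, 75.6%, 82.3% and 71.1% in samples 1 to 4. In each of the 4 sample numbers it was below that of Sox9 Low cells. Lgr5 High cells had 80.6% and 64.5%. CD24Low cells had 57.2%, 64.0%, 64.0% and 42.3%, and the 6 Paneth libraries ran from 39.1% to 78.6% with a median of 50.5%. All CD24Low shares were below all Tuft, Sox9 Low and goblet shares.

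Of the 25 libraries with both strands listed, the exact binomial 95% interval lay wholly above 50% in 19, wholly below 50% in 2 (Paneth library 4 and CD24Low sample 4) and included 50% in 4, all of them Paneth libraries. Intervals here and below cover counting error only. In the 3 Sox9 Negative libraries with 5p listed, the 3p share could be at most 45%, 29.0% and 37.5% with 3p taken at 9 reads. The share of the 3p strand therefore differed between libraries by more than counting error, also within the Paneth population.

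**Figure D2:**
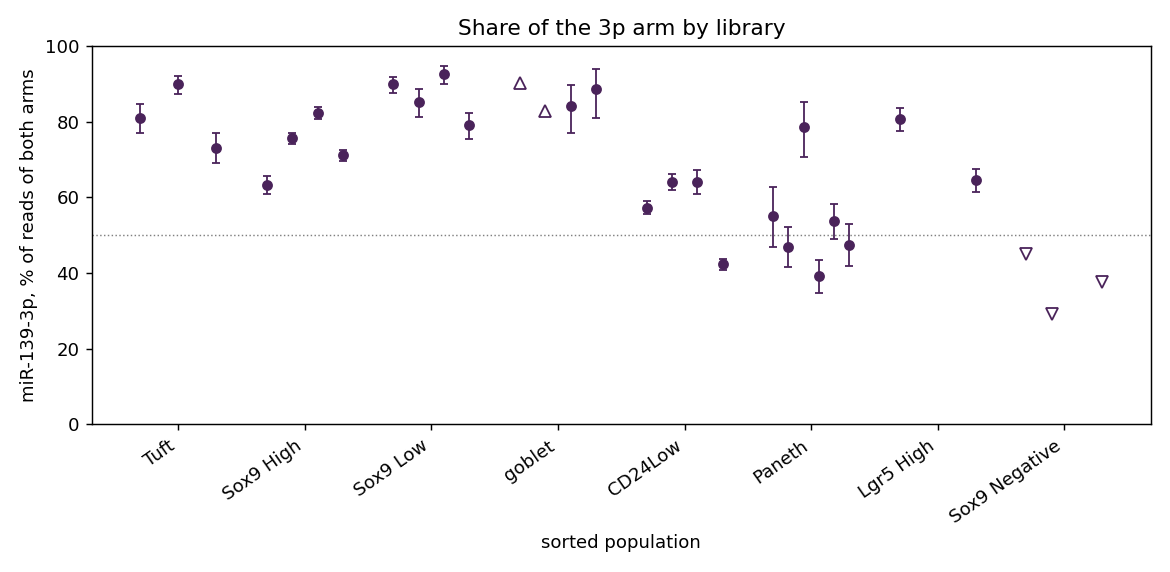
Percent of the reads of both strands that came from miR-139-3p in each library, by sorted population, with exact binomial 95% intervals. Open triangles are bounds where 1 strand was listed at 0 (pointing up, at least; pointing down, at most), and the dotted line is an equal share. Tuft, Sox9 Low and goblet libraries lie at 73.1% or above, and most Paneth libraries lie near 50%.

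The table also holds 10 entries for miR-139 whose 5′ end is shifted from the annotated one. A shifted 5′ end moves the seed. Together they held 298 reads for 3p and 583 reads for 5p, which is 1.51% and 5.49% of the reads of each strand over the 31 libraries. The 3p entry shifted by +1 was listed in 8 libraries, on 12 to 51 reads, and the 5p entry shifted by +1 in 6, on 14 to 283 reads. The 283 reads were in CD24Low sample 4, where the unshifted 5p strand had 2431 reads. Shifted forms were listed in Sox9 High, CD24Low and Tuft libraries, and 2 of the 10 entries were listed in none. Of the shallow Tuft and goblet libraries, only Tuft library 1 had a shifted form listed, on 22 reads, and lower levels could not be seen at that depth.

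Within sample numbers of the Sox9 fractions, both strands had their highest signal in Sox9 High cells and their lowest in Sox9 Negative cells. miR-139-3p was 1.41, 2.79, 2.02 and 2.78 times as high in Sox9 High as in Sox9 Low cells in samples 1 to 4. The ratio was above 1 in 4 of 4 numbers although the ranges overlapped, because sample 3 was the highest in both fractions. miR-139-5p was 7.30, 5.18, 5.41 and 4.25 times as high in Sox9 High as in Sox9 Low cells, and its ranges did not overlap, as held for 12.7% of the 473 entries. In all 4 numbers the 5p ratio was larger than the 3p ratio. In sample 3 the Sox9 High and Sox9 Low libraries carry the same lane number, 1, and that sample's ratios lie inside the range of the others.

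Against Sox9 Negative cells, miR-139-3p was at least 62.2, 78.3, 93.2 and 94.5 times as high in Sox9 High cells and at least 44, 28.1, 46.1 and 34.0 times as high in Sox9 Low cells, with the missing value taken at 9 reads. miR-139-5p was 29.5, 10.4 and 23.1 times as high in Sox9 High cells in samples 1, 2 and 4, and at least 19.99 times as high in sample 3. In Sox9 Low cells it was 4.04, 2.00 and 5.43 times as high in samples 1, 2 and 4, and at least 3.69 times as high in sample 3. Ranges did not overlap for either strand in either pair. The same held for 26.0% of the 473 entries in Sox9 High and for 20.5% in Sox9 Low cells, so such a separation from Sox9 Negative cells is frequent.

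**Figure D3:**
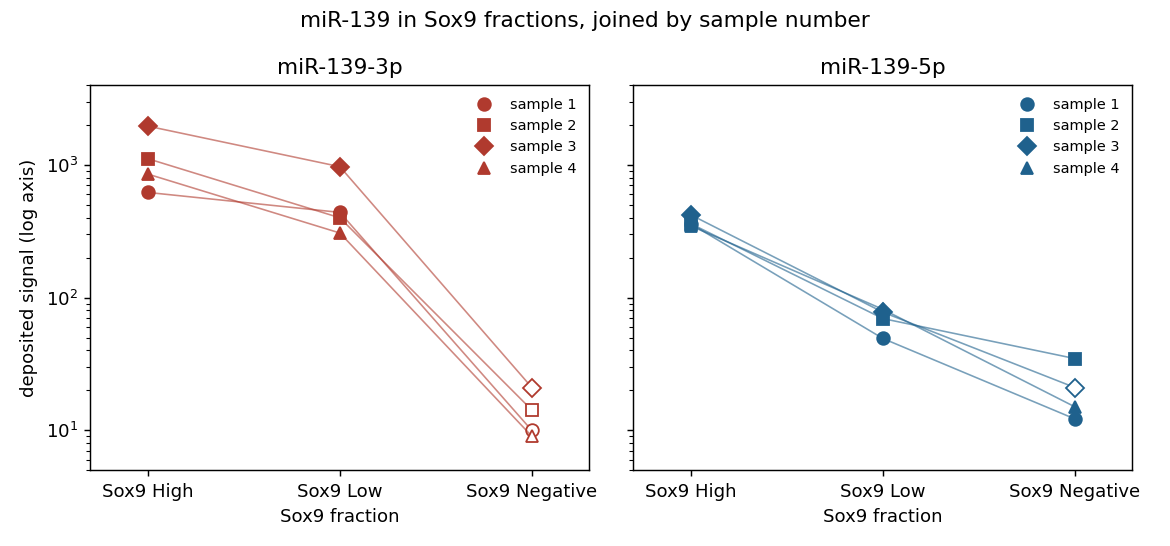
Deposited signal (log axis) of miR-139-3p on the left and miR-139-5p on the right in Sox9 High, Sox9 Low and Sox9 Negative libraries, with 1 symbol and 1 line per sample number. Open symbols stand at the value of 9 reads for libraries listed at 0. Lines of miR-139-5p drop more steeply between Sox9 High and Sox9 Low than those of miR-139-3p, whose sample 3 is the highest in both fractions.

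To place miR-139 among other miRNAs, the entries with the most like pattern were taken by Pearson correlation of log2 signals over the 31 libraries, with every signal under 100 raised to 100. It is a description, since libraries of a population are not independent points and populations differ in depth. The 6 nearest to miR-139-3p were miR-182-5p (r = 0.88), miR-183-5p (0.88), miR-744-5p (0.82), miR-672-5p (0.77), miR-92b-3p (0.74) and miR-541-5p (0.73). Their sequences are shown with seeds in capitals to compare them with the 3p strand above.
miR-182-5p: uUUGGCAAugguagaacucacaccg
miR-183-5p: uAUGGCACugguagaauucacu
miR-744-5p: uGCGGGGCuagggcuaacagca
miR-672-5p: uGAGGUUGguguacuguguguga
miR-92b-3p: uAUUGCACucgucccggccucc
miR-541-5p: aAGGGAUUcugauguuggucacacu
None has the seed of miR-139-3p. miR-182 and miR-183 are made from 1 cluster of hairpins known from sensory organs. miR-182-5p had 298066 ± 20218 in Tuft, 107155 ± 13171 in Sox9 High and 39140 ± 14431 in Sox9 Low cells, against 20964 ± 10906 in Sox9 Negative cells. miR-672-5p had 1031 ± 549 in Tuft and 1205 ± 578 in Sox9 High cells, was listed at 0 in all goblet and Sox9 Negative libraries, and was at 95.5 ± 27.1 in Sox9 Low cells. Without the floor the order changed, and miR-182-5p ranked 10 and miR-744-5p 3.

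The nearest to miR-139-5p were miR-200b-3p (r = 0.87), miR-183-5p (0.85), miR-672-5p (0.83), miR-182-5p (0.78), miR-429-3p (0.78) and miR-200a-3p (0.75). miR-200a, miR-200b and miR-429 come from 1 cluster and are known as miRNAs of epithelial cells. miR-183-5p, miR-182-5p and miR-672-5p were thus near both strands. miR-200b-3p had 44667 ± 4132 in Tuft and 36480 ± 5402 in Sox9 High cells, against 13917 ± 3672 in Sox9 Low cells, where miR-139-5p was also lower than in Sox9 High cells.

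For comparison with miR-139 in the Sox9 fractions, a list of 29 hairpins known from endocrine and neural cells was tested with limma on log2 signals with the floor of 100, over 473 entries, at a Benjamini-Hochberg adjusted p under 0.05 and a log2 fold change of at least 1. Of its 39 entries in the table, 18 passed the filter on low values. Entries are named by hairpin, so miR-7a-5p, miR-128-3p and miR-129-5p are each listed under more than 1 hairpin among the 18. The entries are thus not all separate miRNAs, and both entries of miR-7a-5p are among those that rose against Sox9 Negative cells. In Sox9 High against Sox9 Negative cells 12 of the 18 rose and 0 fell, beside 14.4% of all entries called higher and 18.8% called lower. Several of the 18, such as miR-184-3p and miR-127-3p, were at 0 in all Sox9 Negative libraries. They passed the filter only through other populations and, with the floor, could not fall in either pair with Sox9 Negative. The lack of falls is therefore not read as a result. Among those that rose in Sox9 High cells, miR-7a-2-3p, miR-672-5p, miR-184-3p, miR-1224-5p and miR-127-3p had a mean of 0 in Sox9 Negative cells. Such entries could only rise or stay level. The counts of rises and the medians in both pairs with Sox9 Negative are therefore given as a description only. With the libraries scaled to equal totals, 27.6% of all entries were called higher and 8.52% lower, and 15 of the 18 rose. The median log2 fold change was 2.52 over the 18 and 0 over all entries. In Sox9 Low against Sox9 Negative cells 9 of the 18 rose and 0 fell, beside 12.3% and 16.9% of all entries, with a median of 1.01. With equal totals these shares were 22.9% and 7.71%, and 11 of the 18 rose. The entries with the largest changes in both pairs were miR-7b-5p and miR-375-3p, miRNAs known from endocrine cells. miR-7b-5p had 34870 ± 7424 in Sox9 High and 27799 ± 9822 in Sox9 Low cells, against 177 ± 57.6 in Sox9 Negative cells (SD, n = 4 each).

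In Sox9 High against Sox9 Low cells 3 of the 18 rose and 0 fell, beside 6.34% and 4.23% of all entries, with a median log2 difference of 0.39. The 3 were miR-672-5p, miR-183-5p and miR-182-5p, with log2 fold changes of 3.38 ± 0.28, 1.57 ± 0.22 and 1.51 ± 0.25 (SE). Their adjusted p in limma was 1.22e-09, 8.55e-06 and 5.71e-05. These are the list members that are also among the entries nearest to both miR-139 strands. The nearest entries were picked over libraries that include these Sox9 High and Sox9 Low libraries, so the overlap is not separate evidence. miR-7b-5p and miR-375-3p did not pass in that pair, with log2 fold changes of 0.36 ± 0.43 and 0.46 ± 0.37 and adjusted p of 0.817 and 0.539 in limma.

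Markers of other cells were read beside these levels. The mature miR-126 strands, known from endothelium, summed to at most 22.8 in Sox9 High and 119 in Sox9 Low libraries, 77.0 to 212 in CD24Low and 54.1 to 80.2 in Lgr5 High libraries. They were listed at 0 in all Tuft, goblet, Paneth and Sox9 Negative libraries. In Tuft and goblet libraries 9 reads of an entry are worth up to 62.0 and 57.1, so a level like that of Sox9 High cells could not be seen there. Entries listed at 0 count as 0 in this sum and in those below, so the sums of shallow libraries are lower bounds. miRNAs known from stroma and muscle, 14 entries, summed to 302 to 557 in Tuft libraries. The sum was 64.3 to 133 in Sox9 High libraries and 152 to 277 in Sox9 Low libraries. It was 100.3 to 241 in goblet, 752 to 2557 in CD24Low, 81.8 to 380 in Paneth and 26.9 to 82.7 in Lgr5 High libraries, against 670 to 989 in Sox9 Negative libraries. Tuft libraries thus lay above Sox9 High, Sox9 Low and goblet libraries and below Sox9 Negative libraries. miRNAs known from leukocytes, 8 entries, summed to 306 to 806 in Tuft libraries. Sox9 High libraries had 1210 to 2529 and Sox9 Low libraries 1534 to 5848. The sum was 167 to 593 in goblet, 1442 to 11569 in CD24Low, 2401 to 9244 in Paneth and 1169 to 2813 in Lgr5 High libraries, against 247 to 1014 in Sox9 Negative libraries. Sox9 High and Sox9 Low libraries, where miR-139-3p was high, thus lay above Sox9 Negative libraries in this sum, and Tuft libraries did not. The part of such cells in the miR-139 levels was not tested.

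The host Pde2a was measured in 2614 annotated cells of the single-cell libraries, 1144 in library 1 and 1470 in library 2, which share no barcode. The authors' annotation names 8 types. UMIs (unique molecular identifiers, each 1 counted transcript) were summed by type and library and are given as UMIs per 1000000 UMIs of the type (CPM), with exact Poisson 95% intervals. The types were clustered on these same cells and there are 2 libraries, so no test is given. The annotated tuft cells carried all 8 tuft markers (Dclk1, Trpm5, Pou2f3, Gfi1b, Avil, Il25, Alox5ap and Ltc4s) in both libraries, at a summed 3800 and 2356 CPM, while no other type exceeded 19.3 CPM.

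Pde2a was highest in tuft cells, next in goblet cells, then in secretory progenitors and enteroendocrine cells (EEC), and near 0 elsewhere. Tuft cells had 96.4 CPM (69.2 to 131, 41 UMIs) in library 1 and 80.8 CPM (59.4 to 107, 47 UMIs) in library 2. Goblet cells had 50.01 CPM (40.3 to 61.3, 92 UMIs) and 52.8 CPM (47.4 to 58.6, 351 UMIs). Tuft cells had 1.93 times (1.30 to 2.81) and 1.53 times (1.10 to 2.08) the level of goblet cells. With the genes over 1% of a type's UMIs left out of the totals, tuft cells had 104 and 89.4 CPM. The ratios to goblet cells were then 1.59 and 1.28, and no interval was computed for them.

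Secretory progenitors had 30.2 CPM (22.4 to 39.9, 50 UMIs) in library 1 and 28.4 CPM (24.5 to 32.8, 187 UMIs) in library 2. EEC had 18.4 CPM (8.81 to 33.8, 10 UMIs) and 17.2 CPM (9.43 to 28.9, 14 UMIs). Goblet cells had 1.65 and 1.86 times the level of secretory progenitors, with intervals of 1.16 to 2.38 and 1.55 to 2.23. For secretory progenitors over EEC the ratios were 1.65 and 1.65, with intervals of 0.825 to 3.64 and 0.958 to 3.07 that include 1, so the order of these 2 types was not resolved.

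Paneth cells had 1.36 and 2.93 CPM (8 and 13 UMIs), progenitors 0.332 and 1.81 CPM (2 and 22 UMIs) and enterocytes 0.157 and 0.717 CPM (1 and 11 UMIs). No Pde2a UMI was found in the intestinal stem cells (ISC), 78 and 80 cells with 1206930 and 1450911 UMIs. There, 3 counts would be 2.49 and 2.07 CPM, and the exact Poisson upper bounds are 3.06 and 2.54 CPM. In Paneth cells a few secreted peptides take much of all UMIs, with 7 Paneth markers at 441195 and 394392 CPM. With the 32 genes over 1% of a type's UMIs left out of the totals, Paneth cells stood at 9.29 and 10.2 CPM and goblet cells at 65.7 and 70.0 CPM, and the order of the top 4 types was the same.

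Cell by cell, a Pde2a UMI was found in 20 of 24 and 19 of 23 tuft cells, 58 of 105 and 177 of 250 goblet cells, 33 of 82 and 91 of 146 secretory progenitors, and 9 of 35 and 11 of 45 EEC. It was found in 1 of 406 and 7 of 488 enterocytes, 0.246% and 1.43%, the lowest shares apart from ISC. Whether these UMIs are background was not tested. Tuft cells had 83.3% and 82.6% of cells with a UMI. Their median depth was 15067 and 16640 UMIs, no greater than the 15164 and 24698 UMIs of enterocytes. Paneth cells had 8.33% and 9.46% at a median of 73555 and 67245 UMIs, the deepest type.

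Thinned to 2000 UMIs per cell, the share was 12.5% and 21.7% in tuft cells, 8.57% and 14.8% in goblet cells, 6.10% and 7.53% in secretory progenitors, and 0% and 4.55% in EEC. It was 0% in Paneth cells, progenitors and ISC of both libraries. Thinning left out 0 cells of library 1 and, in library 2, 1 EEC, 2 Paneth cells, 10 progenitors, 1 enterocyte and 2 ISC. These shares come from 1 random draw and rest on 3 and 5 tuft cells with a UMI. Another draw, without cells that carry at least 3 markers of another tissue, gave 14.3% and 9.09% in tuft against 7.69% and 13.2% in goblet cells, so the order turned in library 2. Averaged over all possible draws, an alternative chosen after seeing the data, the share was 18.9% and 21.0% in tuft, 9.58% and 11.0% in goblet and 5.73% and 6.12% in secretory progenitor cells. Without the cells that carry those markers the average was 19.1% and 21.5% in tuft and 9.48% and 11.1% in goblet cells, with tuft cells higher in both libraries. A tuft cell held at most 6 and 7 Pde2a UMIs and a goblet cell at most 4 and 7.

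Goblet cells held more Pde2a UMIs than any other type. They held 45.1% of the 204 Pde2a UMIs of annotated cells in library 1, with 9.18% of the cells, and 54.4% of the 645 in library 2, with 17.0% of the cells. Secretory progenitors held 24.5% and 29.0%. Tuft cells held 20.1% in library 1 and 7.29% in library 2, with 2.10% and 1.56% of the cells. Enterocytes, 35.5% and 33.2% of the cells, held 0.490% and 1.71%. Tuft cells, the type with the highest level, thus gave fewer Pde2a UMIs than goblet cells in both libraries.

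**Figure D4:**
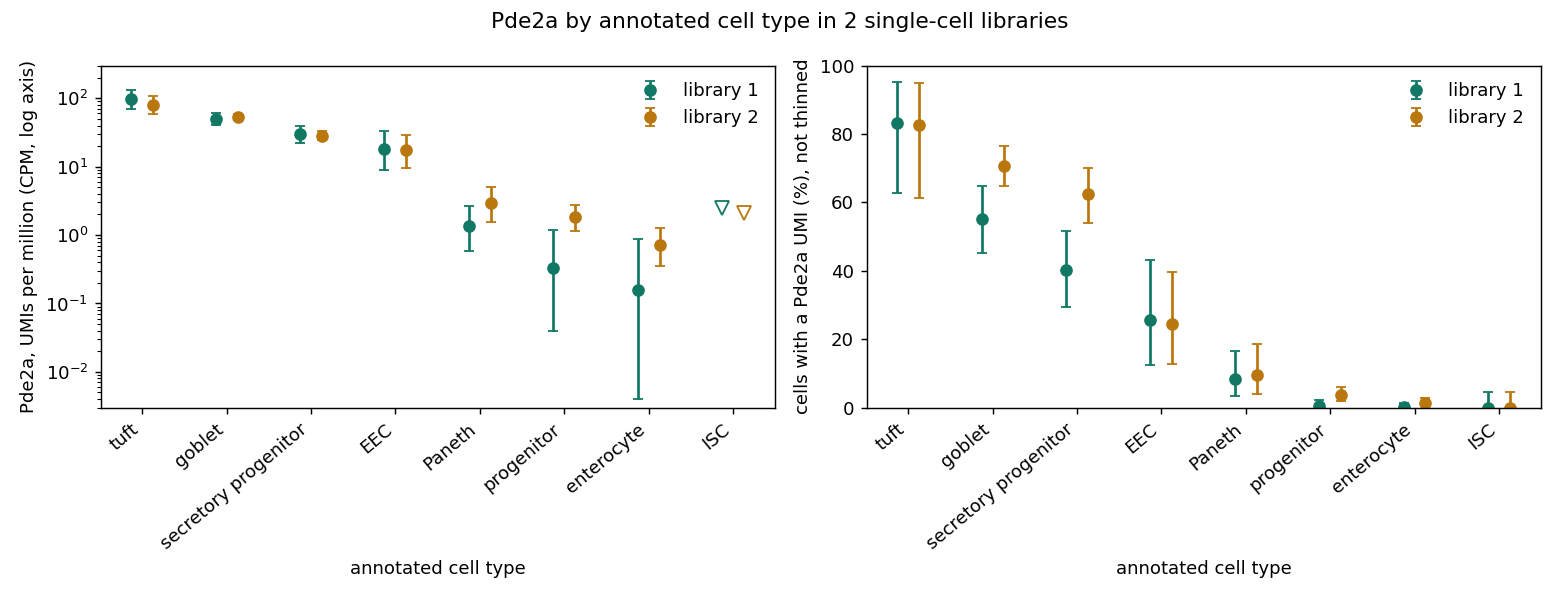
Left, Pde2a level of each annotated type (CPM, log axis) in library 1 and library 2, with exact Poisson 95% intervals; open triangles are the level that 3 counts would give where no UMI was found. Right, percent of cells with a Pde2a UMI, not thinned, with exact binomial 95% intervals. Tuft cells stand at 96.4 and 80.8 CPM, goblet cells at 50.01 and 52.8 CPM, and ISC have no UMI.

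Whether goblet or tuft transcripts in other barcodes carry the signal was read from markers. Goblet cells without any tuft marker UMI, 91 and 220 cells, had 52.5 and 54.2 CPM of Pde2a, as high as all goblet cells, so the goblet level is as large without cells that show tuft RNA. Secretory progenitors without a tuft marker had 23.9 and 30.3 CPM and EEC 19.0 and 20.01 CPM. In enterocytes the counts changed more. Without cells that show a tuft marker, 0 UMIs in 317 and 3 UMIs in 389 enterocytes remained, against 1 and 11 in all. Ltc4s had 95 and 126 UMIs in enterocytes, more than any other tuft marker there. Some of the cells left out may thus hold no tuft RNA. In library 2, however, 3 enterocytes with at least 3 tuft markers held 4 of the 11 Pde2a UMIs, while library 1 had 0 such cells. The source of the enterocyte UMIs was not tested.

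Goblet RNA was read through Muc2, the main mucin of goblet cells. Per 1000 Muc2 UMIs, goblet cells had 9.99 and 5.50 Pde2a UMIs. Paneth cells had 4.81 and 2.39, enterocytes 7.87 and 2.91, and progenitors 12.7 and 11.6. The ratio was thus below that of goblet cells in Paneth cells and enterocytes and above it in progenitors. Tuft cells had 837 and 197, EEC 250 and 326, and secretory progenitors 18.4 and 8.36, above the goblet ratio in both libraries.

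Pde2a is also known from endothelium and brain. Of 8 endothelial markers, 4 and 3 had a UMI in tuft cells, summing to 44.7 and 18.9 CPM, the highest sum of the 8 types in both libraries. The next were EEC, at 25.7 and 18.5 CPM. Esam had 8 and 8 UMIs in tuft cells, and Plvap, with 3 and 2 UMIs there, had none in any other type. Kdr, Cldn5 and Egfl7 were at 0 in tuft cells of both libraries. In goblet cells 2 and 4 markers had a UMI, at 8.15 and 1.35 CPM. Stromal markers had no UMI in tuft or goblet cells. Leukocyte markers, among them Ptprc, which tuft cells are known to express, summed to 174 and 122 CPM in tuft and 55.4 and 84.7 CPM in goblet cells. Without the 3 and 1 tuft cells that carry at least 3 markers of 1 other tissue, Pde2a was at 98.2 and 81.5 CPM in tuft cells, as high as in all of them. In library 2 only 3 endothelial markers had a UMI in tuft cells, Tie1 with 1 UMI, so at most 1 cell could carry 3. The filter also counts leukocyte markers. The part of endothelial RNA in the tuft level was not tested.

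Library 2 also holds 6241 barcodes with no annotated type, at a median of 1738 UMIs, against 65 such barcodes in library 1. They held 88 and 3 Pde2a UMIs, a level of 3.92 and 3.69 CPM. In library 2, 17 of them had UMIs of at least 3 tuft markers, and these held 16 Pde2a UMIs in 9 barcodes, 103 CPM (59.1 to 168). The 1515 with leukocyte markers held 6 UMIs, 1.22 CPM (0.447 to 2.65). Unannotated barcodes with tuft markers thus had Pde2a at the level of annotated tuft cells. Barcodes can carry markers of several lists, and doublets were not removed here.

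The genes with the most like pattern were taken by Pearson correlation with Pde2a of log2(CPM + 10) over the 16 sums of type and library, among 8184 genes at 20 CPM or more in at least 1 of them. These were Atp2a3 (r = 0.98), Rgs2 (0.97), Dpysl2 (0.96), Lpcat4 (0.95), Rassf6 (0.93) and Ampd3 (0.93). The points share the annotation, and the genes of a type share its cells, so this is a description. Atp2a3, a pump that returns calcium to the endoplasmic reticulum, had 367 and 354 CPM in tuft cells and 144 and 171 CPM in goblet cells. It had 0.829 and 1.38 CPM in ISC.

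Rgs2, which limits signalling of G proteins, had 461 and 332 CPM in tuft cells, 166 and 218 CPM in goblet cells and 57.0 and 59.1 CPM in EEC. Dpysl2, a protein that binds tubulin, had 106 and 107 CPM in tuft, 97.3 and 85.9 CPM in goblet and 49.6 and 71.4 CPM in EEC cells. Lpcat4 acylates lysophospholipids, Rassf6 carries a domain that binds Ras-like proteins, and Ampd3 deaminates AMP. In library 2, Rassf6 and Ampd3 were lower in tuft than in goblet cells (25.8 and 29.2 CPM in tuft, 46.0 and 30.8 CPM in goblet cells). All 6 shared with Pde2a low values in ISC, progenitors and enterocytes, at most 10.4 CPM.

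Other genes of cyclic nucleotide signalling are given from a list of phosphodiesterases, makers and effectors. All 19 phosphodiesterases of the list had UMIs in annotated cells. In tuft cells 4 of them reached 20 CPM in both libraries, Pde2a, Pde5a, Pde6d and Pde9a. Pde5a and Pde9a break down cGMP. Pde5a had 30.6 and 37.8 CPM in tuft cells but 53.5 and 72.1 CPM in enterocytes, where it was highest in both libraries. Pde9a had 68.2 and 25.8 CPM in tuft and 53.7 and 58.0 CPM in enterocytes. Pde6d, which despite its name is a carrier of prenylated proteins, was highest in tuft cells, at 58.8 and 41.3 CPM.

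Of the phosphodiesterases, 7 of 19 had their highest level in the same type in both libraries, with at least 3 UMIs there in each. They were Pde2a and Pde6d in tuft cells, Pde1c, Pde3b and Pde11a in EEC, and Pde3a and Pde5a in enterocytes. Pde3a, which cGMP inhibits, had 7.05 and 17.2 CPM in tuft cells against 36.6 and 48.1 CPM in enterocytes. Pde2a and Pde6d were thus the phosphodiesterases counted in tuft cells. The share of all genes that are highest in tuft cells was not computed. The pattern of Pde2a is the one it was chosen for.

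Among 23 makers and ligands in the files, 5 had no UMI and 4 reached 20 CPM in tuft cells in both libraries. These were Guca2a (guanylin), Guca2b (uroguanylin), Gucy2c (guanylate cyclase C) and Adcy6, an adenylate cyclase. Gucy2c, the receptor that makes cGMP, was found in every type, with 106 and 87.7 CPM in tuft and 65.2 and 81.7 CPM in goblet cells. It was highest in EEC at 140 and 188 CPM. Its ligand Guca2a was highest in goblet cells at 9943 and 4906 CPM, with 214 and 461 CPM in tuft cells.

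Guca2b was highest in enterocytes at 2471 and 963 CPM. Adcy6 had 54.1 and 49.9 CPM in tuft and 48.4 and 33.4 CPM in goblet cells. Adcy5, another adenylate cyclase, missed the 20 CPM limit and was picked after its values were seen. It had 21.2 and 17.2 CPM in tuft cells, on 9 and 10 UMIs, and at most 0.152 CPM in any other type.

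Of 14 effectors, 1 had no UMI and 3 reached 20 CPM in tuft cells in both libraries. Prkar1a and Prkar2a, regulatory subunits of the cAMP-dependent kinase, had 127 and 107 CPM and 153 and 187 CPM in tuft cells. Both were found in every type, and Prkar1a was highest in EEC. Cftr, the chloride channel that these kinases open, had 35.3 and 51.6 CPM in tuft and 20.7 and 16.7 CPM in goblet cells, against 59.7 and 97.9 CPM in ISC. Cftr and Pde2a thus ran opposite ways between goblet cells and ISC.

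**Figure D5:**
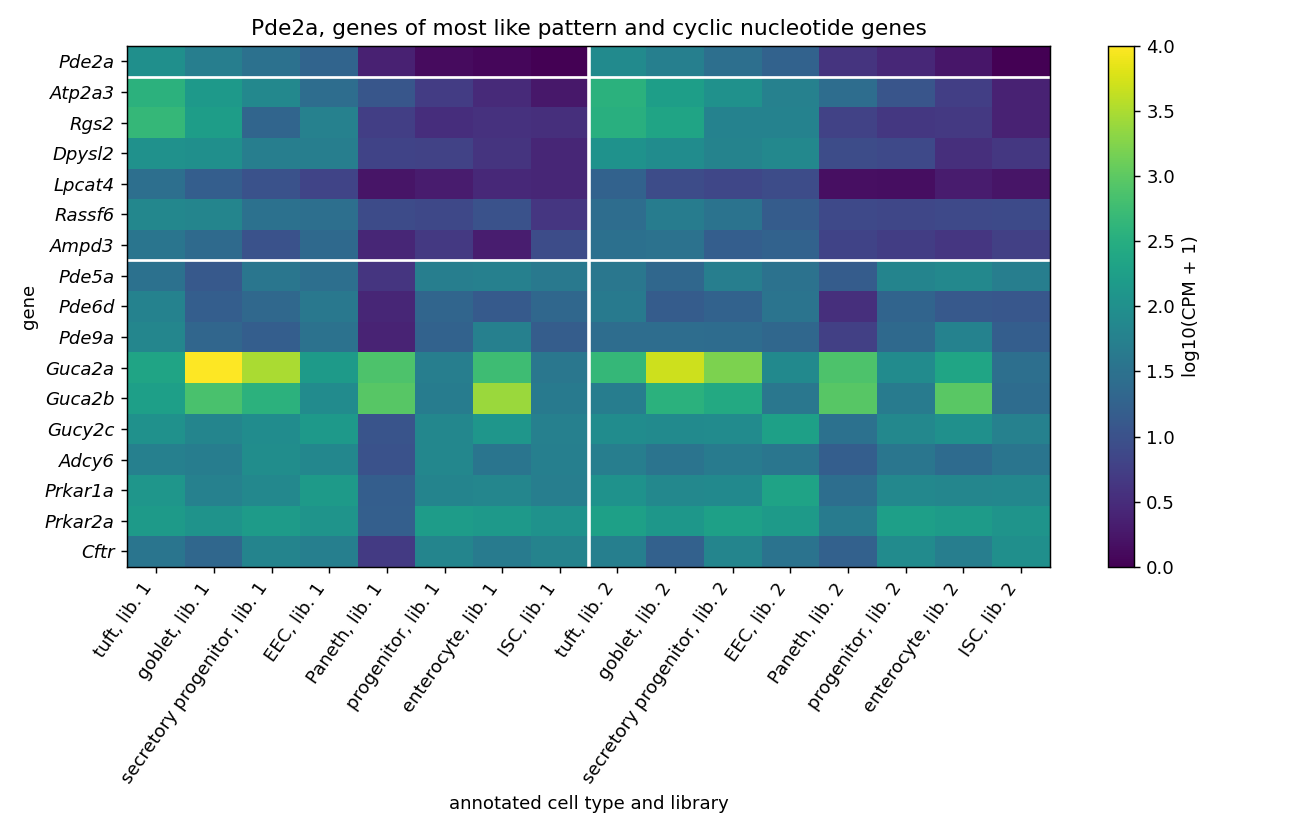
Colours give log10(CPM + 1) of Pde2a (top), the 6 genes of most like pattern (middle) and 10 cyclic nucleotide genes at 20 CPM or more in tuft cells (bottom), by annotated type in library 1 (left) and library 2 (right). Colours compare types within a gene and not genes with each other. Pde2a and the middle group are low in ISC, progenitors and enterocytes, where several genes of the bottom group are not.

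Tuft, goblet and Paneth cells were measured for both host and miRNA, in different cells and on different scales, so only ratios between types are set side by side. For tuft over goblet cells, mean miR-139-3p was 6.42 times and miR-139-5p at least 8.53 times as high, with the 2 goblet libraries listed at 0 taken at 9 reads, and Pde2a 1.93 and 1.53 times. Neither strand's ranges overlapped (10.4% of the 473 entries were higher in Tuft in that way). For tuft over Paneth cells, miR-139-3p was 19.8 times, miR-139-5p 3.83 times and Pde2a 70.6 and 27.6 times as high, and again neither strand overlapped (11.0% of entries). With the genes over 1% of UMIs left out of the totals, the Pde2a ratio was 1.59 and 1.28 for tuft over goblet cells. For tuft over Paneth cells it was 11.2 and 8.79, below that of the 3p strand.

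For Paneth over goblet cells, miR-139-3p was 0.324 times and miR-139-5p at least 2.23 times as high, and Pde2a 0.0273 and 0.0555 times, or 0.141 and 0.145 times without the genes over 1% of UMIs. Host and 3p strand were lower in Paneth than in goblet cells, while the 5p mean was higher, with overlapping ranges and 2 goblet libraries at 0. In the stem-cell populations, Lgr5 High libraries had both strands listed, on 554 and 644 reads for 3p and 133 and 354 reads for 5p, while annotated ISC had no Pde2a UMI. These libraries are deep, and the 3p reads amount to 22.5 and 40.2 RPM, against 501 to 1232 RPM in Tuft libraries. Whether Lgr5 High sorts hold the same cells as the annotated ISC was not tested.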

How the data were processed

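The deposited miRNA table holds a signal per entry and library. Its deposited values show reads over 1 library factor: 100% of the 20677 values above 0 are whole multiples of 1 step, within 0.001 reads. No source used here gives the aligner, the counter or the scaling tool. Per the submitters' processing notes the build was mm9; positions here are from RefSeq GRCm38.p6. 3 columns that match no label were not used. The members, the lists and the tests were chosen with earlier results of these data known. limma 3.58.1 (R 4.3.3) fitted means of 8 populations with a trend over all 31 libraries, on log2 signals raised to 100 where lower, for 473 entries above 100 in at least 2 libraries. The test was checked on simulated data. Named miRNAs are the 6 most correlated with a strand and, per Sox9 pair, at most 4 called list entries with the largest change. Named genes are the 6 most correlated with Pde2a and list members at 20 CPM or more in tuft cells in both libraries. Deposited single-cell UMI counts, with the authors' cell types, were summed by type and library. Sequences were folded with RNAfold (ViennaRNA 2.7.2). Intervals used SciPy 1.17.1. Sox9 High and Sox9 Low samples of 1 number were regarded as paired, since their residuals correlated at 0.229 to 0.445 in the 4 numbers. The main limma fit held no term for the sample number, so the tests given in Results are unpaired. The number entered only the ratios within a number and an alternative fit with it as a block. Alternatives were other floors, filters, scalings, fits, left-out libraries and depths.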

Additional observations from a re-analysis of the deposited data

How the results depend on the processing

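Levels were compared as the log2 difference of a population from the mean of the other 7. For miR-139-3p it was 3.18 in Tuft cells (4.16 without a floor), 1.89 in Sox9 High cells (2.87 without a floor) and -1.96 in Sox9 Negative cells, where all libraries sit at the floor. The last value was -8.57 without a floor, -2.92 and -1.18 with floors of 50 and 200, -2.11 with equal totals, and -2.01 to -1.90 when 1 library was left out. Directions turned only where the main value lay between -0.71 and 0.13. For miR-139-3p this was CD24Low without a floor (0.28, against -0.71) and goblet (0.13) at a floor of 200 (-0.19), with equal totals (-0.48) and with 1 library left out (-0.12 without goblet library 4, up to 0.45). For miR-139-5p it was CD24Low (0.11) at a floor of 200 (-0.20) and with 1 library left out (-0.093 without CD24Low sample 4, up to 0.36), and Paneth (-0.22) without a floor (0.58) and with equal totals (0.017).

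With the sample number as a replicate block, miR-139-3p in Sox9 Negative cells stood at -2.17, and 12, 10 and 3 list members were called higher in the 3 Sox9 pairs, in the order High against Negative, Low against Negative and High against Low, so the block changed no other count by over 1.5 times. Residuals of Sox9 High and Sox9 Negative samples of 1 number correlated at 0.04 to 0.22, and those of Sox9 Low and Sox9 Negative at -0.25 to 0.47, so those pairs share a number and a code of unstated meaning but were not taken as paired.

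Without a floor the filter on low values also changed, and 1057 entries were tested, 29 of them list members. In these pairs 21, 18 and 6 of the 29 were called higher, and 261, 163 and 101 of all entries. In Sox9 Low against Sox9 Negative 147 of all entries were called lower. With equal totals 136 of all entries were called higher and 42 lower in High against Negative and 113 and 38 in Low against Negative, beside 68 and 89, and 58 and 80, in the main fit. edgeR 4.0.16 on recovered reads called 15, 15 and 3 list members higher, and 106 and 92 of all entries higher in the pairs with Sox9 Negative. Leaving out 1 library gave 12 to 13, 8 to 11 and 3 to 4 list members higher and 0 to 1 lower, that 1 in High against Low without Sox9 Low sample 1.

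Pde2a averaged 88.6 CPM in tuft and 51.4 CPM in goblet cells over the 2 libraries. As a mean over cells it was 115 and 54.7 CPM, and goblet cells had 67.8 CPM without genes over 1% of UMIs, an alternative chosen after seeing the data. The share of cells with a UMI moved with depth, from 17.1% at 2000 UMIs to 83.0% unthinned in tuft cells, and to 63.0% unthinned and 5.38% at 1000 UMIs in goblet cells, from 11.7%. Depth limits the 5p strand in goblet cells and both strands in Sox9 Negative cells.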
